A study of Homo sapiens with 62 samples.

Results

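The 10 genes MYO1A, VIL1, CDHR2, CDHR5, USH1C, EPS8, EPS8L3, EZR, PLS1 and ESPN encode structural parts of the microvilli that make up the brush border of epithelial cells. They are listed by name, out of 29794 genes counted in a metabolic RNA labelling series of human pancreatic ductal adenocarcinoma cells. AsPC-1 cells, a line of the classical subtype, gave 42 libraries in 7 groups and T3M-4 cells, a basal-like line, gave 20 libraries in 5 groups. In every group, controls included, endogenous KLF5 had been knocked out with a guide RNA and replaced by a FLAG-tagged KLF5 that carries the FKBP12-F36V degradation tag. The comparison of degrader and inactive analogue asks which newly made RNAs change soon after KLF5, a transcription factor, is removed.

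In AsPC-1, 10 libraries were made after 4 h with the degrader dTAG and 10 after 4 h with its inactive analogue NEG. Another 5 were made after 4 h with CB-6644, an inhibitor of the RUVBL1/2 ATPases, 5 after 4 h with the solvent DMSO and 4 after 4 h with NVP-2, an inhibitor of the elongation kinase CDK9. At 12 h, 4 AsPC-1 libraries received CB-6644 and 4 received DMSO. In T3M-4 the same treatments at 4 h gave 4 libraries each. Cells took up 4-thiouridine for 2 h before harvest, and chemical conversion makes RNA made in that window read as T>C mismatches. A T>C read therefore comes mostly from new RNA, while all reads measure the whole pool. The first digit of a library number marks the biological experiment and the second a library within it, so p-values measure the spread between libraries, part of which may be technical. The labels also give each library a batch, 1 or 2, without saying what the batch is: in AsPC-1, experiments 1 and 2 of dTAG and NEG and the CB-6644 and DMSO libraries of 4 h are batch 1, and experiment 3, NVP-2 and the 12 h libraries are batch 2.

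Microvilli are finger-like membrane protrusions, each held up by a core bundle of actin filaments. Villin (VIL1), plastin 1 (PLS1, also called fimbrin) and espin (ESPN) cross-link the filaments of the bundle. EPS8 sits at the tip and EPS8L3 is its relative. MYO1A, a class I myosin, ties the bundle to the side of the membrane, and ezrin (EZR) links actin to membrane proteins. The protocadherins CDHR2 and CDHR5 join neighbouring tips through a complex that includes the scaffold USH1C, also called harmonin. In GENCODE v44 (GRCh38) the bundlers lie at chr2:218419121-218453295 (VIL1), chr3:142596393-142713664 (PLS1) and chr1:6424776-6461367 (ESPN), EPS8 at chr12:15620134-15882329 and EPS8L3 at chr1:109750080-109764027. MYO1A lies at chr12:57028517-57051198, EZR at chr6:158765741-158819368, CDHR2 at chr5:176542511-176595974, CDHR5 at chr11:616577-626078 and USH1C at chr11:17493895-17544416. Reads were counted over the annotated 3′ untranslated exons of each. These proteins are best known from enterocytes of the intestine, and villin is also made by ducts of the pancreas and their tumours.

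Libraries held 2240998 to 27982537 T>C reads and 82676553 to 244524608 reads in all. Across the libraries other than NVP-2, T>C reads were 7.58% to 10.6% of the reads of an AsPC-1 library and 11% to 14.3% of those of a T3M-4 library. All reads of 1 AsPC-1 dTAG library (number 3.1) were not used here, so all reads and shares rest on 9 dTAG libraries. Counts add up over the annotated 3′ ends of a gene, and a read can be added more than once: EZR counts were even in all 62 libraries, and USH1C T>C counts were multiples of 5 in 46 of the 50 libraries where they were above 0. For both genes, counting error is thus larger than the printed counts imply. No library without 4-thiouridine is analysed here, so the T>C level that sequencing errors and genetic variants alone would give is not known.

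The epithelial identity of both lines showed in all reads of the DMSO 4 h libraries. EPCAM was at 214 to 332 CPM, which is counts scaled to the library total, in AsPC-1 and at 33.8 to 40.5 CPM in T3M-4. HNF4A, a factor of gut and classical pancreatic epithelium, was at 12.4 to 22.2 CPM in the AsPC-1 libraries against 0.126 to 0.474 in those of T3M-4. The basal marker TP63 was at 0 to 0.121 CPM in AsPC-1 against 18.3 to 28.7 in T3M-4. The immune marker PTPRC stayed at or below 0.125 CPM in both lines. The stromal markers COL1A2 and DCN stayed at or below 0.442, and COL1A1 ranged from 5.95 to 8.79 CPM in T3M-4.

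The brush-border genes separated the lines. In all reads of the DMSO 4 h libraries, 7 of the 10 genes were lower in T3M-4 than in AsPC-1, ESPN was higher, EZR did not pass the test and CDHR5 was too low to test (edgeR quasi-likelihood test, Benjamini-Hochberg adjustment over 15464 genes). The background was high: 55.7% of all genes tested passed between the lines, so a count of 8 among 9 genes tested is read against that. Of all genes, 25.2% were lower and 30.5% higher in T3M-4. The AsPC-1 DMSO 4 h libraries are all batch 1, while those of T3M-4 come from batches 1 and 2. T>C CPM, scaled to the T>C reads of each library, gave the same split of 7 lower and 1 higher against a background of 48.4%, with 21.6% lower and 26.8% higher. In bulk libraries, fewer cells that express a gene and less RNA per cell cannot be told apart.

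Among the bundlers, VIL1 measured 69.7, 49.5, 46.1, 28.8 and 34.5 CPM of all reads in the 5 AsPC-1 DMSO libraries. In the 4 T3M-4 DMSO libraries it measured 0.258, 0.385, 0.182 and 0.181 CPM. Every T3M-4 library lay far below every AsPC-1 library, and the pooled level was 184-fold higher in AsPC-1 (log2 difference of T3M-4 minus AsPC-1 −7.61 ± 0.407 SE, adjusted p = 2.3e-07). PLS1 was closer between the lines, at 20.3, 21.0, 16.0, 13.3 and 13.9 CPM in AsPC-1 and 7.70, 7.74, 13.6 and 12.5 CPM in T3M-4. The groups overlapped in 1 T3M-4 library, and PLS1 was lower in T3M-4 by −0.80 ± 0.228 on the log2 scale (adjusted p = 0.012). ESPN went the other way, with 2.03, 1.23, 2.45, 0.434 and 0.696 CPM in AsPC-1 and 10.2, 15.5, 8.70 and 9.44 CPM in T3M-4. Every T3M-4 library lay above every AsPC-1 library (log2 difference 2.91 ± 0.477, adjusted p = 0.00044). In T>C reads the ESPN difference was 3.53 ± 1.12 (adjusted p = 0.022), a call lost without AsPC-1 DMSO library 2.2 (adjusted p = 0.051) or T3M-4 DMSO library 1.2 (adjusted p = 0.060).

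EPS8 was present in both lines and EPS8L3 chiefly in AsPC-1. EPS8 measured 196 to 304 CPM of all reads in AsPC-1 DMSO, with a median of 232, and 43.8, 28.8, 53.2 and 47.0 CPM in T3M-4 DMSO (log2 difference −2.60 ± 0.217, adjusted p = 4.5e-06). EPS8L3 measured 29.1, 42.1, 29.3, 47.0 and 22.4 CPM in AsPC-1 and 0.193, 0.235, 0.0973 and 0.0589 CPM in T3M-4, a pooled 257-fold difference (log2 difference −7.97 ± 0.479, adjusted p = 4.8e-07). Its T>C reads numbered 2159 over the AsPC-1 DMSO libraries and 0 over the T3M-4 ones. At a floor of 3 counts over the T3M-4 DMSO group, EPS8L3 labelling was at least 1066-fold higher in AsPC-1 DMSO. Other T3M-4 groups held some EPS8L3 T>C reads, such as 12 (0.809 CPM) in CB-6644 library 1.2. The figure thus covers the DMSO libraries alone and is no bound for the lines.

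Of the membrane linkers, MYO1A was found in AsPC-1 and EZR in both lines. MYO1A measured 2.70, 3.63, 10.6, 5.85 and 3.87 CPM of all reads in AsPC-1 DMSO, while the T3M-4 DMSO libraries gave 13 MYO1A reads in all (270-fold by pooled level, log2 difference −8.06 ± 0.817, adjusted p = 1.7e-05). No MYO1A T>C read was found in T3M-4 DMSO against 106 in AsPC-1 DMSO, at least 52.3-fold by the same floor. That figure too covers the DMSO libraries alone, as T3M-4 dTAG library 1.2 held 0.322 MYO1A T>C CPM. EZR measured 285, 334, 295, 431 and 292 CPM in AsPC-1 DMSO and 345, 294, 398 and 365 CPM in T3M-4 DMSO. The groups overlapped, and the log2 difference was 0.00 ± 0.160 (adjusted p = 0.99). Between the NEG libraries EZR was lower in T3M-4, at −0.46 (adjusted p = 0.012).

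The tip-link genes were AsPC-1 genes as well. CDHR2 measured 6.71, 7.36, 10.3, 9.81 and 7.25 CPM of all reads in AsPC-1 DMSO and at most 0.0549 CPM in T3M-4 DMSO (231-fold by pooled level, log2 difference −7.87 ± 0.360, adjusted p = 1.1e-07). Its T>C reads numbered 249 in AsPC-1 DMSO and 0 in T3M-4 DMSO, at least 123-fold by the same floor in the DMSO libraries alone. T3M-4 NEG library 1.2 held 0.0920 CDHR2 T>C CPM. USH1C measured 105, 83.6, 63.8, 82.7 and 14.8 CPM in AsPC-1 DMSO and 0.122 to 0.319 CPM in T3M-4 DMSO (339-fold by pooled level, log2 difference −8.55 ± 0.665, adjusted p = 2.8e-06). One AsPC-1 library, DMSO 2.2, sat far below the other 4. CDHR5, the partner of CDHR2, was close to absent in both lines, at 0 to 0.177 CPM of all reads in AsPC-1 and at most 0.00562 in T3M-4, and its T>C reads were above 0 in 8 of 62 libraries.

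**Figure D1:**
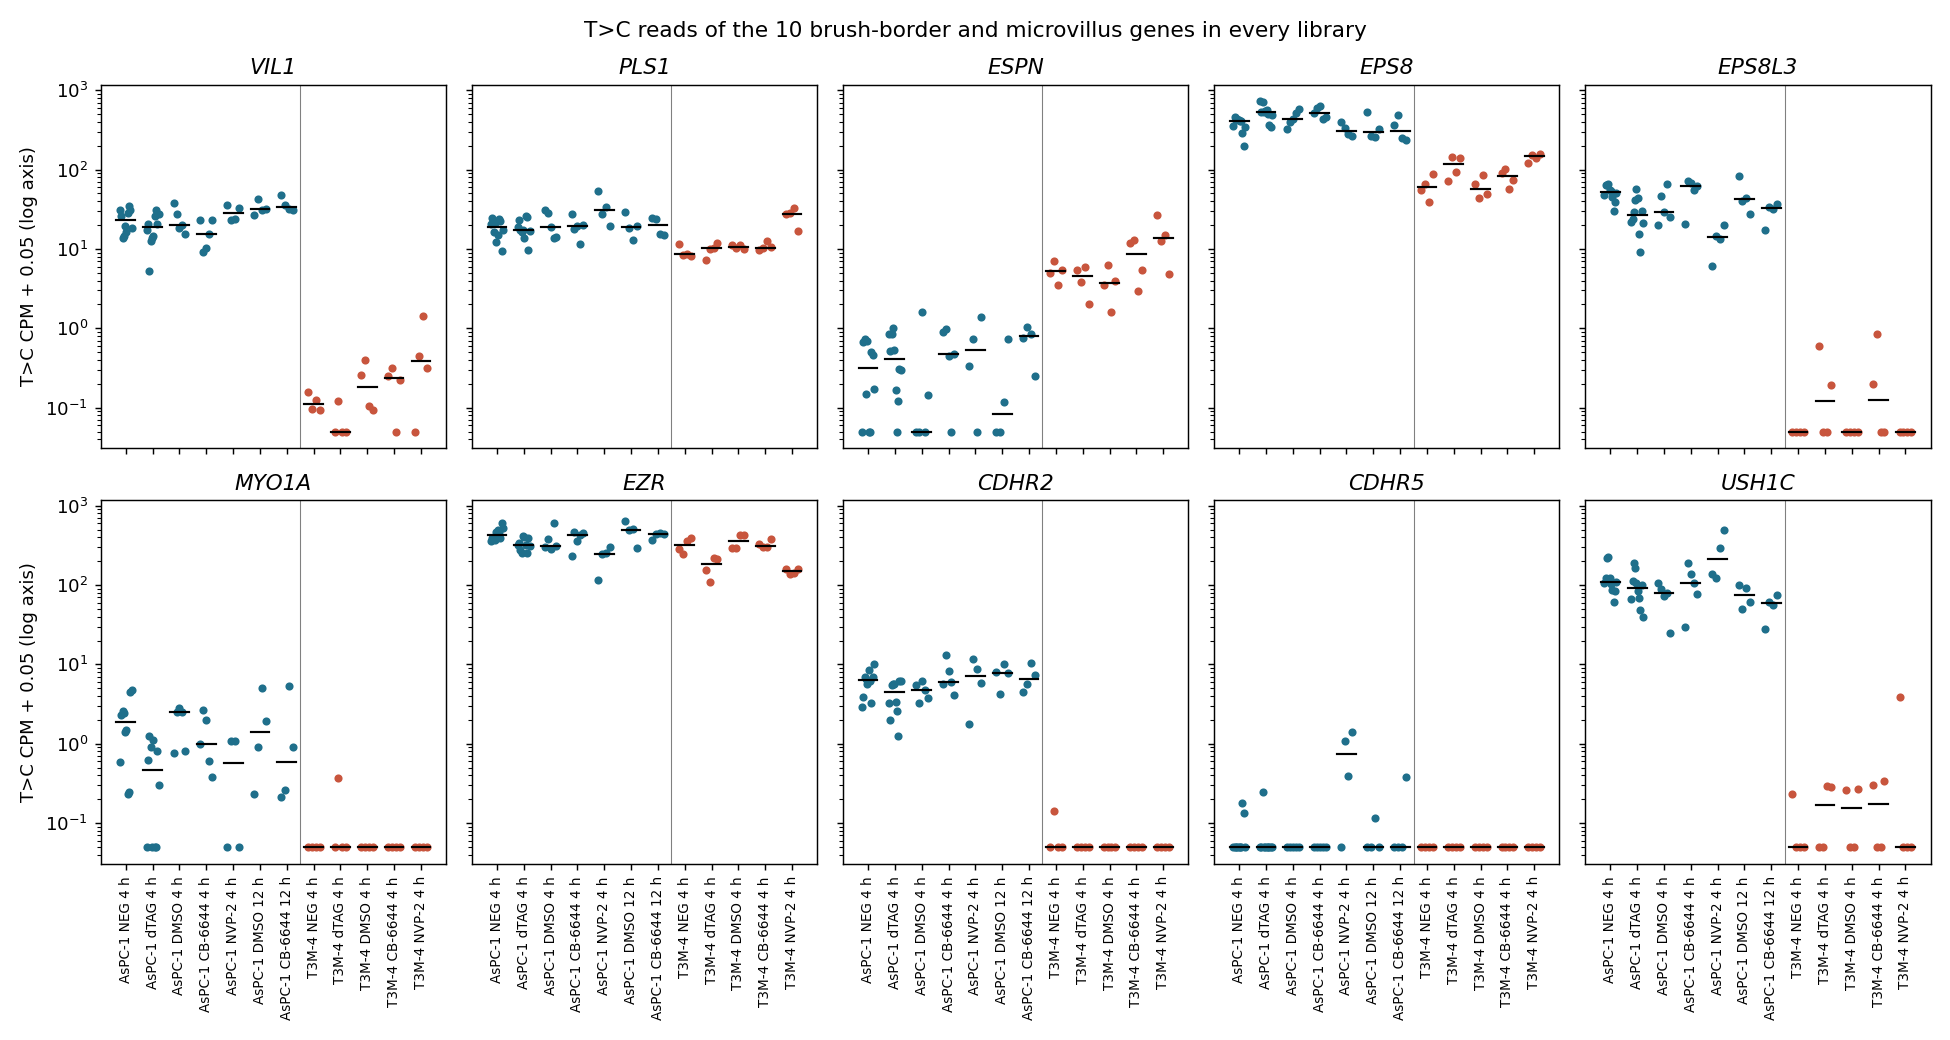
T>C CPM of each gene, which is its T>C reads scaled to the T>C total of the library, plus 0.05, on a log axis, in all 62 libraries by group, with AsPC-1 in blue, T3M-4 in red and a black line at the group median. VIL1, EPS8L3, MYO1A, CDHR2 and USH1C sit near the bottom of the axis in T3M-4, and ESPN is higher in T3M-4. EZR sits at a similar height in the DMSO 4 h groups of both lines. Its medians are lower in T3M-4 in the NEG, dTAG, CB-6644 and NVP-2 groups of 4 h.

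AsPC-1 libraries of the same group also differed among themselves, and the brush-border genes took part. Ward clustering of T>C log2 CPM, less the group means, over the 500 most variable genes with the 10 members left out divided the AsPC-1 libraries into 3 sets, called A, B and C here. The dTAG and NEG libraries of each number fell in the same set, while CB-6644 library 1.2 fell in set B and DMSO library 1.2 in set A. MYO1A ranged from 1.13 to 4.16 CPM of all reads in the 16 libraries of set A, from 5.63 to 14.7 in the 17 of set B and from 3.87 to 6.33 in the 8 of set C. Sets A and B did not overlap for MYO1A, within either batch or over both. Set C holds batch 1 libraries alone, so the 3 sets are compared within batch 1, where CDHR2 had medians of 6.71, 14.4 and 11.1 CPM in sets A, B and C, and EPS8L3 had 38.0, 56.2 and 46.7.

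VIL1 followed another order than MYO1A. Within batch 1 it ranged from 45.3 to 69.7 CPM in the 7 libraries of set A, from 28.6 to 46.1 in the 7 of set B and from 26.9 to 34.5 in the 8 of set C. Set B thus overlapped both set A and set C, while sets A and C did not overlap. Within batch 2 VIL1 was higher, at 58.0 to 100.3 CPM in set A and 53.2 to 73.7 in set B. ESPN had batch 1 medians of 1.23, 1.74 and 0.721 CPM in sets A, B and C, and EPS8 had 258, 346 and 283. EPS8 was lower in batch 2 than in batch 1, with medians of 185 CPM in set A and 153 in set B. The treatments differ between the batches, so these batch differences also carry treatment. The sets are groups drawn from the data and the labels do not name them, so these values are a description with no test.

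**Figure D2:**
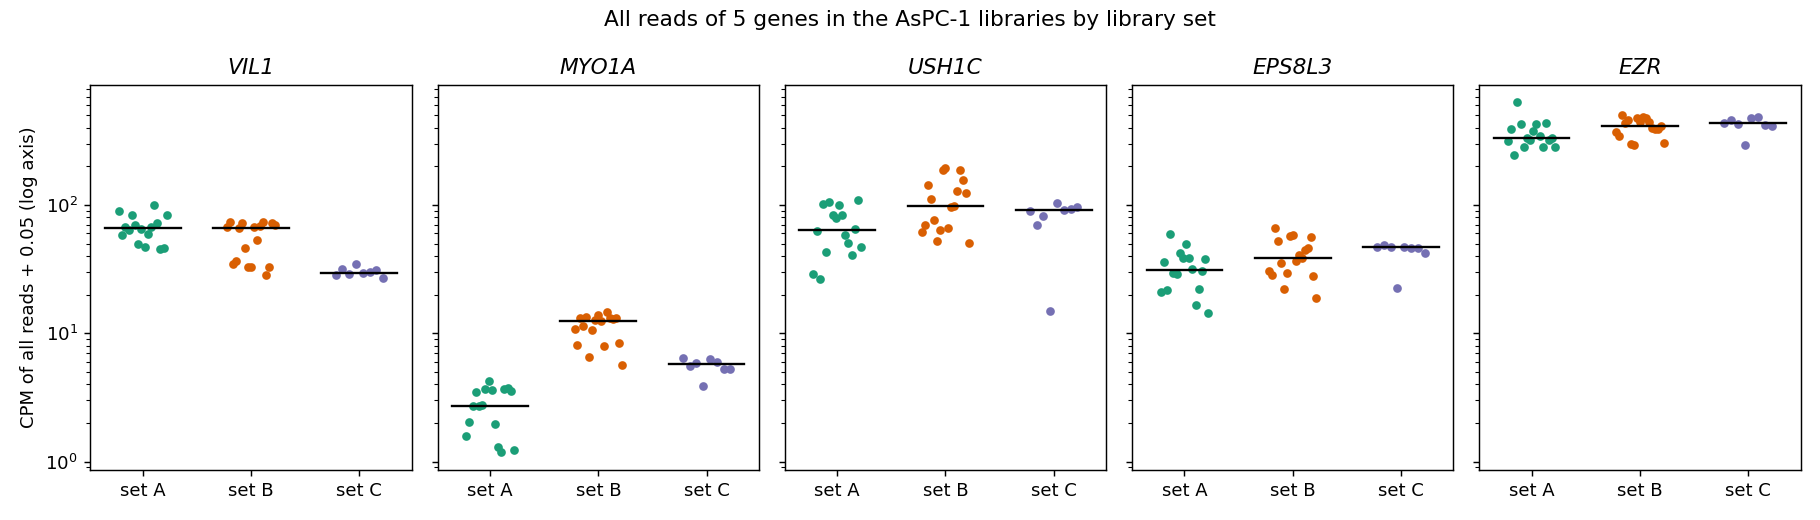
CPM of all reads plus 0.05, on a log axis, for VIL1, MYO1A, USH1C, EPS8L3 and EZR in the 41 AsPC-1 libraries with all reads, by library set, with a black line at the median of each set. MYO1A in set A, at 1.13 to 4.16 CPM, lies below all set B libraries. VIL1 in set C lies at 26.9 to 34.5 CPM, within batch 1, while sets A and B mix both batches.

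Over the 15 AsPC-1 DMSO 4 h and NEG 4 h libraries, which share this set structure and come from both batches, the pair of members with the highest Spearman correlation in all reads was MYO1A and CDHR2 (rho 0.775) and the pair with the lowest was VIL1 and EPS8 (rho −0.811). Genes outside the list tracked single members more closely, among 12685 genes ranked: FAM219A and ATP5MC3 for MYO1A (rho 0.975 and 0.968), HJURP and BOK for VIL1 (0.954 and 0.943), EML1 and SELENOP for PLS1 (0.975 and 0.943), and QPRT and PGAP6 for CDHR2 (0.975 and 0.971). For EPS8 they were H2AC20 and HNRNPKP4 (0.971 and 0.939), for EPS8L3 RPA1 and SF3B4 (0.936 and 0.925), for EZR INPP5A and NDUFS5 (0.957 and 0.918), for ESPN ISCA1 and CES2 (0.968 and 0.946), and for USH1C G6PC3 and METTL25B (both 0.857). These are the top ranks of a long list over few libraries and are given as a description.

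KLF5 RNA is given first, although the degrader acts on protein and its RNA does not measure the loss. Reads were counted over 3′ untranslated exons, while the tagged KLF5 was expressed from a cDNA construct. Whether the counted RNA encodes the degraded protein is thus not known. KLF5 T>C reads ranged from 71.5 to 143 CPM in AsPC-1 NEG and from 135 to 192 in dTAG (log2 change 0.60, adjusted p = 0.0028). In T3M-4 they ranged from 515 to 619 CPM in NEG and from 1019 to 1193 in dTAG (log2 change 0.90, adjusted p = 0.026). KLF5 T>C CPM thus rose with dTAG in both lines. The percentage of KLF5 reads that carry T>C was lower in AsPC-1 (edgeR log2 odds −0.31, adjusted p = 0.029), where 40.5% of all genes passed. In T3M-4 it did not pass (0.21, adjusted p = 0.78).

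After loss of KLF5 in AsPC-1, T>C CPM of EPS8 was higher and that of EZR, EPS8L3 and MYO1A lower. This held in nearly every pair of same-numbered libraries, and whether these changes passed the test depended on whether the pairing entered it. T>C CPM is relative to the other labelled RNA of a library. The percentage of EPS8 reads that carry T>C was not higher with dTAG, with means of 15.62% in NEG and 14.75% in dTAG. In the fit without the pairing, 281 of 11696 genes passed (2.4%) and 0 of the 8 members tested, although 4 had unadjusted p-values under 0.05. DESeq2 passed 3 of them, but the share of all genes that DESeq2 passed is not given here. Same-numbered dTAG and NEG libraries deviated together from their group means in all 10 pairs. For some numbers another NEG library correlated better, and same-numbered libraries also share an experiment and a library set. The correlation thus cannot tell pairing by number from these shared sources. With the number as a block, 867 of 11696 genes passed (7.41%), 266 of them higher and 601 lower, and 4 of the 8 members passed.

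EPS8 ranged from 198 to 455 T>C CPM in the 10 NEG libraries, with a median of 412, and from 348 to 722 in the 10 dTAG libraries, with a median of 530. The ranges overlapped, but within pairs EPS8 was higher with dTAG in 10 of 10, by 0.23 to 1.05 on the log2 scale. The log2 change was 0.53 ± 0.143 without the block (edgeR adjusted p = 0.051) and 0.53 ± 0.0867 with it (adjusted p = 0.0012). In the paired fit EPS8 T>C reads thus rose relative to the other labelled RNA. Without dTAG library 3.2 or 3.3 the fit without the block passed as well (adjusted p = 0.035 and 0.025).

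EZR ranged from 361 to 609 T>C CPM in NEG, with a median of 429, and from 255 to 412 in dTAG, with a median of 322. It was lower with dTAG in 10 of 10 pairs, by 0.16 to 0.76 on the log2 scale. The log2 change was −0.42 ± 0.120 without the block (adjusted p = 0.065) and −0.42 ± 0.0770 with it (adjusted p = 0.0027). The fit without the block also passed when NEG library 1.1 or dTAG library 2.1, 2.2 or 3.3 was left out (adjusted p = 0.045, 0.043, 0.048 and 0.042). Ezrin is the main ERM protein of epithelial microvilli.

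EPS8L3 ranged from 30.3 to 65.0 T>C CPM in NEG, with a median of 51.7, and from 9.16 to 57.0 in dTAG, with a median of 26.6. It was lower in 9 of 10 pairs, and the pair that was not lower, number 2.1, measured 55.8 CPM in NEG and 57.0 in dTAG. The log2 change was −0.80 ± 0.240 without the block (adjusted p = 0.088) and −0.92 ± 0.164 with it (adjusted p = 0.0022). Without dTAG library 2.1 the fit without the block also passed (adjusted p = 0.021).

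MYO1A ranged from 0.184 to 4.76 T>C CPM in NEG, with a median of 1.86, and from 0 to 1.19 in dTAG, with a median of 0.413. It was at 0 in 4 of the 10 dTAG libraries and in 0 of the 10 NEG libraries, and it was lower in 10 of 10 pairs. The log2 change was −2.11 ± 0.719 without the block (adjusted p = 0.16) and −2.26 ± 0.490 with it (adjusted p = 0.0090). These are small counts, so the size of the fitted change depends on the prior count.

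The other members did not pass in either fit. CDHR2 had medians of 6.30 T>C CPM in NEG and 4.39 in dTAG and was lower in 9 of 10 pairs (log2 change −0.59, adjusted p = 0.089 with the block). USH1C had medians of 108 and 92 CPM and VIL1 of 22.8 and 18.9, each lower in 9 of 10 pairs, with adjusted p-values of 0.11 and 0.22 with the block. PLS1 had medians of 18.9 and 17.3 CPM and was higher in 5 pairs and lower in 5. ESPN stayed at or below 0.963 T>C CPM and CDHR5 at or below 0.198 in both groups, under the filter on low counts.

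**Figure D3:**
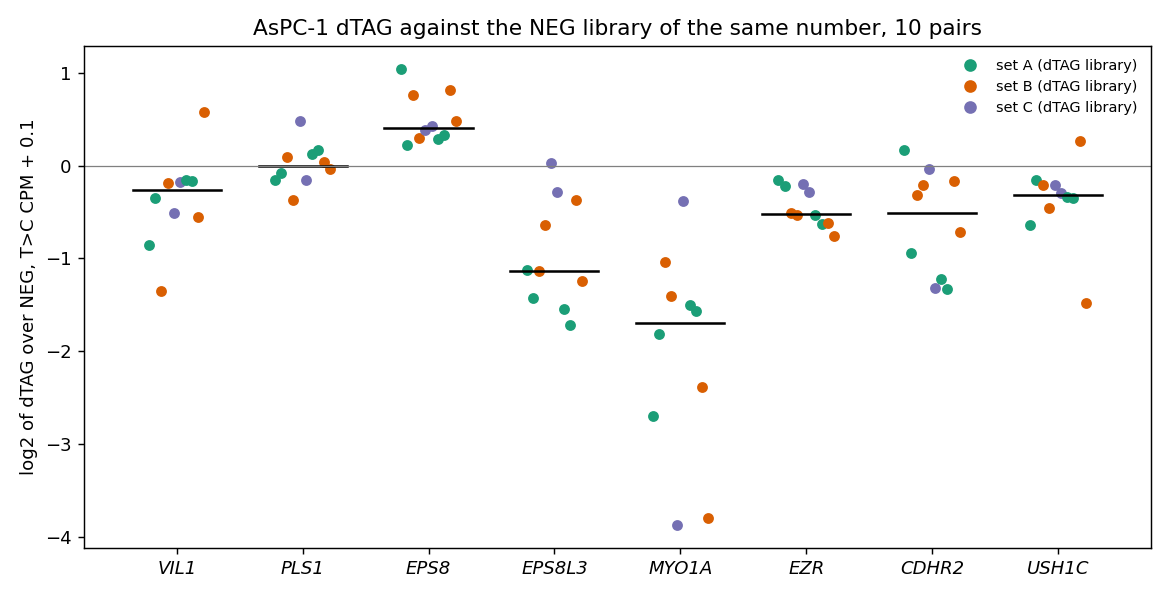
log2 ratio of T>C CPM plus 0.1 in each AsPC-1 dTAG library over the NEG library of the same number, for the 8 genes tested, with points coloured by library set and a black line at the median of 10 pairs. All EPS8 points lie above 0, all EZR and MYO1A points lie below, and PLS1 is spread around 0.

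The calls rested on libraries rather than on experiments. Within batch 1 (experiments 1 and 2) EPS8 passed alone (log2 change 0.54, adjusted p = 0.032), with EZR at −0.30, EPS8L3 at −0.68 and MYO1A at −1.49. Within batch 2 (experiment 3) none of the members passed, with EPS8 at 0.45, EZR at −0.64 and EPS8L3 at −1.12, and MYO1A was too low to test. With counts summed to the 3 experiments, 0 members passed and adjusted p-values ran from 0.36 for MYO1A to 0.94 for EPS8L3 among these 4. The direction of EPS8, EZR and EPS8L3 was the same in these fits, and that of MYO1A in those where it was tested.

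The whole RNA pool moved less. Without the block 111 of 13931 genes passed in all reads (0.797%) and 0 of 9 members, and by DESeq2 0 members passed as well. With the block 547 of 13815 genes passed (3.96%) and 3 of 9 members: EPS8 at 0.36 (adjusted p = 0.027), EPS8L3 at −0.46 (adjusted p = 0.046) and EZR at −0.28 (adjusted p = 0.029). MYO1A in all reads was at −0.24 with an adjusted p of 0.17.

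The labelled share, which is the percentage of a gene's reads that carry T>C, was lower with dTAG for 6 of the 8 members tested, but 40.5% of all genes passed as well, almost all of them lower. The library-wide share was 7.93% to 10.1% in NEG and 7.58% to 8.67% in dTAG. USH1C ranged from 9.73% to 12.6% in the 10 NEG libraries and from 6.16% to 9.11% in the 9 dTAG libraries, so the groups did not overlap (log2 odds −0.54 ± 0.0928, adjusted p = 0.00040). MYO1A ranged from 0.974% to 6.39% and from 0% to 1.56% (log2 odds −2.05 ± 0.420, adjusted p = 0.0016). EPS8L3, EZR, CDHR2 and VIL1 were lower by 0.72, 0.44, 0.68 and 0.62 in log2 odds, while EPS8 (−0.10, adjusted p = 0.32) and PLS1 (−0.34, adjusted p = 0.059) did not pass. PLS1 passed without dTAG library 3.2 or NEG library 3.3 or 3.4 (adjusted p = 0.017, 0.028 and 0.048). Set against the share of each library, in an alternative chosen after seeing the data, USH1C (−0.31, adjusted p = 0.045) and MYO1A (−1.87, adjusted p = 0.026) still passed and the other 6 did not. The share of all genes that passed this alternative is not given here, so these calls do not set the 2 genes apart from other genes.

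In T3M-4, EZR labelling fell with dTAG in the paired fit and no other member passed. EZR measured 283, 248, 364 and 389 T>C CPM in NEG and 155, 110, 221 and 215 in dTAG, and every dTAG library lay below every NEG library. Without the block 112 of 13424 genes passed (0.834%) and 0 of 4 members, with EZR at −0.95 ± 0.264 (adjusted p = 0.20) and 0 members by DESeq2. Same-numbered libraries deviated together here too. With the number as a block 298 genes passed (2.22%), EZR among them at −0.98 ± 0.123 (adjusted p = 0.0067). Within batch 1 EZR was at −1.07 (adjusted p = 0.17) and within batch 2 at −0.85 (adjusted p = 0.060).

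EPS8 measured 55.4, 66.1, 38.5 and 89.0 T>C CPM in T3M-4 NEG and 72.0, 144, 92.6 and 140 in dTAG. It was higher in 4 of 4 pairs, the groups overlapped, and it did not pass (0.77 ± 0.302, adjusted p = 0.55, or 0.077 with the block). ESPN measured 4.98, 7.08, 3.46 and 5.42 CPM in NEG and 5.33, 3.82, 5.87 and 1.95 in dTAG (−0.38, adjusted p = 1.0), and PLS1 was at 0.03. In all reads 3 of 15727 genes passed (0.0191%) and none of the members, by edgeR with or without the block or by DESeq2.

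The EZR share fell into separate ranges in T3M-4, with 12.4%, 11.6%, 11.7% and 12.2% in NEG and 8.04%, 8.99%, 8.65% and 8.33% in dTAG. The log2 odds were −0.55 ± 0.0935 with an adjusted p of 0.056, where 0.268% of genes passed. Relative to the share of each library they were −0.59 (adjusted p = 0.032), and how many of all genes passed on that scale is not given here. The EPS8 share was 9.22% to 18.8% in NEG and 20.4% to 25.7% in dTAG, again without overlap, and did not pass (log2 odds 0.69 ± 0.256, adjusted p = 0.59). For 4 libraries against 4, full separation corresponds to p = 0.0286 in the exact permutation test. How many of all genes separated in this way was not counted. The test of whether the dTAG change in T>C reads differed between the lines passed 6 of 14088 genes (0.0426%) and 0 of 9 members. For EZR the T3M-4 change minus the AsPC-1 change was −0.51 ± 0.248 (adjusted p = 0.86) and for EPS8 it was 0.27 ± 0.309.

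Sequences upstream of EPS8L3, EZR and MYO1A, the members that were lower in the paired AsPC-1 fit, are shown because KLF factors bind GC-rich and CACCC-type DNA. Promoters, from 250 bases before to 50 after a start site, were taken from RefSeq (GRCh38.p14), which matched 6 of the 10 members with 11 promoters. EPS8, VIL1, ESPN and CDHR5 had no entry. The motif CCNCNCCC, searched on both strands, occurs in 56.2% of 35116 promoters, and the CACCC box CCACACCC, which is 1 instance of it, in 3.28%. Capitals mark CCNCNCCC or its reverse complement. The promoter of EPS8L3 (chr1:109763874-109764173, minus strand) holds 2 matches, 1 of them the CACCC box. EZR (chr6:158818186-158818485, minus strand) holds 6 and no CACCC box. One MYO1A promoter (chr12:57050080-57050379, minus strand) holds 1, a CACCC box, and the other (chr12:57051149-57051448, minus strand) holds none and is not printed.
EPS8L3: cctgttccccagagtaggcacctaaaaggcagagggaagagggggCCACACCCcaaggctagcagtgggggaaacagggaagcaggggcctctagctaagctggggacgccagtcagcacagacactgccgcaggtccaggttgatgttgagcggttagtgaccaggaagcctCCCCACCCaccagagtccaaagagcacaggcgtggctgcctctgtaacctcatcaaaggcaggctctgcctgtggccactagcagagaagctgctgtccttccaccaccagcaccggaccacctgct
EZR: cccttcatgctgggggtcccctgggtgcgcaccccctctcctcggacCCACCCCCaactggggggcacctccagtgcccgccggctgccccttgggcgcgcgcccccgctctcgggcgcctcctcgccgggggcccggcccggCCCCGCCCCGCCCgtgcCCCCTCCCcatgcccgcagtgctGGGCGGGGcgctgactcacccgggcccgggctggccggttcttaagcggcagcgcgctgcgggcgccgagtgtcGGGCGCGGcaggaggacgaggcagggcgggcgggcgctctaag
MYO1A: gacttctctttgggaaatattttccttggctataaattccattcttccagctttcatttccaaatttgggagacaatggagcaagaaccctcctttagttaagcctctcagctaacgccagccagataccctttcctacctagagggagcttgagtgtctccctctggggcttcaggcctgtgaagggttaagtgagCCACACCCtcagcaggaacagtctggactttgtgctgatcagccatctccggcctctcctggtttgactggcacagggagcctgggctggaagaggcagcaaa

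CCACACCC also occurs in 1 of the 3 PLS1 promoters and 1 of the 2 CDHR2 promoters, and in neither of the 2 USH1C promoters, which hold 4 and 2 matches to CCNCNCCC. PLS1 did not pass in either line with dTAG. A match is a description of the letters and no binding was measured here.

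With CB-6644 no member passed the test in T>C reads. In AsPC-1 at 4 h 0 of 11649 genes passed by edgeR (0%), with 482 at an unadjusted p under 0.05 and 1 by DESeq2. In T3M-4 at 4 h 0 of 13444 passed (569 unadjusted, 7 by DESeq2), and in AsPC-1 at 12 h 0 of 12204 passed (473 unadjusted, 26 by DESeq2). None of the members was among the DESeq2 calls. In all reads 0 of 13891, 2 of 15761 (0.0127%) and 0 of 14398 genes passed by edgeR, with 267, 453 and 325 unadjusted and 6, 12 and 18 by DESeq2, and again none of the members.

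VIL1 and MYO1A had the lowest fitted T>C values with CB-6644 in AsPC-1 at 4 h. VIL1 measured 38.0, 27.4, 18.1, 19.8 and 15.3 T>C CPM in DMSO and 23.1, 9.12, 10.3, 15.4 and 22.9 in CB-6644 (log2 change −0.60 ± 0.320, adjusted p = 0.98). MYO1A measured 0.705, 2.48, 2.75, 2.45 and 0.758 T>C CPM in DMSO and 0.958, 2.58, 1.92, 0.560 and 0.337 in CB-6644 (−0.58 ± 0.615, adjusted p = 0.98). CDHR2 had the highest, at 0.61 ± 0.348, with 5.41, 3.25, 6.09, 4.73 and 3.70 CPM in DMSO and 5.64, 12.9, 8.29, 5.98 and 4.04 in CB-6644. Library 1.2, at 3.25 and 12.9 CPM, belongs to set A in DMSO and to set B in CB-6644. Within batch 1, CDHR2 had medians of 6.71 CPM of all reads in set A and 14.4 in set B. The groups are thus not balanced for library set, between which VIL1 and MYO1A differed as well. The groups overlapped for all 3 genes, and a p that misses the threshold does not show that a gene did not change. At 12 h the fitted values ran from −0.75 ± 0.355 for EPS8L3 to 1.62 ± 1.16 for ESPN, and the difference between 12 h and 4 h passed for 0 of 12720 genes (414 unadjusted). Time and batch coincide in that difference and cannot be told apart. In T3M-4 ESPN had the highest value, 0.98 ± 0.504, from 3.5, 6.28, 1.54 and 3.85 CPM in DMSO and 11.8, 13, 2.90 and 5.42 in CB-6644, and the difference between lines passed for 0 of 13963 genes (511 unadjusted).

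The labelled share gave the single CB-6644 call. In AsPC-1 at 4 h 242 of 11649 genes passed (2.08%), each of them lower, and EZR was the 1 member of 8. Its share was 10.7%, 12.2%, 10.1%, 12.9% and 10.1% in DMSO and 7.94%, 7.68%, 7.25%, 8.06% and 8.44% in CB-6644, with no overlap (log2 odds −0.56 ± 0.105, adjusted p = 0.018). The library-wide share was lower too, 9.36% to 10.6% in DMSO and 8.23% to 8.90% in CB-6644, and relative to it EZR was at −0.29 with an adjusted p of 0.54. The call was also lost without any 1 of CB-6644 libraries 1.2, 1.3 and 2.1 or DMSO library 1.2 (adjusted p = 0.063, 0.057, 0.060 and 0.059). MYO1A had shares of 2.69%, 7.26%, 2.76%, 3.91% and 1.85% in DMSO and 3.04%, 1.65%, 1.5%, 0.729% and 0.520% in CB-6644, with overlap in 1 CB-6644 library, and did not pass (log2 odds −1.46 ± 0.446, adjusted p = 0.093). In the other CB-6644 contrasts 0 of 13444 and 0 of 12204 genes passed in the share (347 and 580 unadjusted).

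NVP-2 lowered the labelled share of nearly every gene, and the members differed in how much of it they kept. T>C reads were 9.36% to 10.6% of all reads in AsPC-1 DMSO and 1.35% to 1.91% in NVP-2, and in T3M-4 they were 11.1% to 14.1% and 1.80% to 2.80%. The share of 96.6% of the genes tested passed in AsPC-1 and of 93.6% in T3M-4, nearly all lower, with medians of −3.35 and −3.50 in log2 odds. NVP-2 and CB-6644 at 4 h were compared with the same DMSO libraries. In AsPC-1 the NVP-2 libraries belong to batch 2 and the DMSO 4 h libraries to batch 1, so each NVP-2 result was also computed against controls of batch 2, the 4 NEG 4 h and 4 DMSO 12 h libraries, which differ from NVP-2 in agent or time as well. T>C reads were 8.47% to 9.83% of all reads in the batch 2 DMSO libraries, so the low library-wide share of NVP-2 held within the batch.

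USH1C had the smallest fall in labelled share among the AsPC-1 members tested. The T>C level without 4-thiouridine is not known, so the share left with NVP-2 need not all be new RNA. USH1C T>C counts were multiples of 5 in 46 of 50 libraries and its all-read counts in 29 of 61. Reads may thus be added more than once to unlike degrees in the 2 parts of its share. Its share was 10.3%, 11.3%, 12.2%, 8.89% and 15.7% in DMSO and 5.26%, 4.41%, 4.58% and 5.17% in NVP-2 (log2 odds −1.35 ± 0.222, adjusted p = 5.9e-05). PLS1 (−2.33), EPS8 (−2.62) and CDHR2 (−2.88) came next, then VIL1 (−3.26), EZR (−3.83) and EPS8L3 (−4.07). EPS8L3, at the other end, had shares of 6.98% to 13% in DMSO and 0.536% to 0.971% in NVP-2. All 7 members passed, and all 7 passed against either batch 2 control, with USH1C at −1.14 and −1.18 and EPS8L3 at −3.99 and −4.31. Relative to the share of each library, USH1C was higher (1.47, adjusted p = 0.00027), EZR and EPS8L3 were lower (−1.02 and −1.25, adjusted p = 0.0017 and 0.0051) and the other 4 did not pass. The share of all genes that passed on this relative scale is not given here.

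In T3M-4 the EZR share was 11.8%, 13.2%, 11.9% and 12.8% in DMSO and 1.34%, 1.39%, 0.673% and 0.913% in NVP-2 (log2 odds −3.76 ± 0.281, adjusted p = 9.4e-07). EPS8 was at −2.17 (adjusted p = 0.00013) and PLS1 at −1.48 (adjusted p = 0.028), and the PLS1 call was lost without DMSO library 1.1 or 1.2 or NVP-2 library 2.1 or 2.2 (adjusted p = 0.086, 0.078, 0.056 and 0.066). ESPN did not pass, with 4.85%, 5.42%, 1.96% and 4.52% in DMSO and 6.27%, 2.80%, 2.49% and 0.870% in NVP-2 (−0.65 ± 0.638, adjusted p = 0.34).

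**Figure D4:**
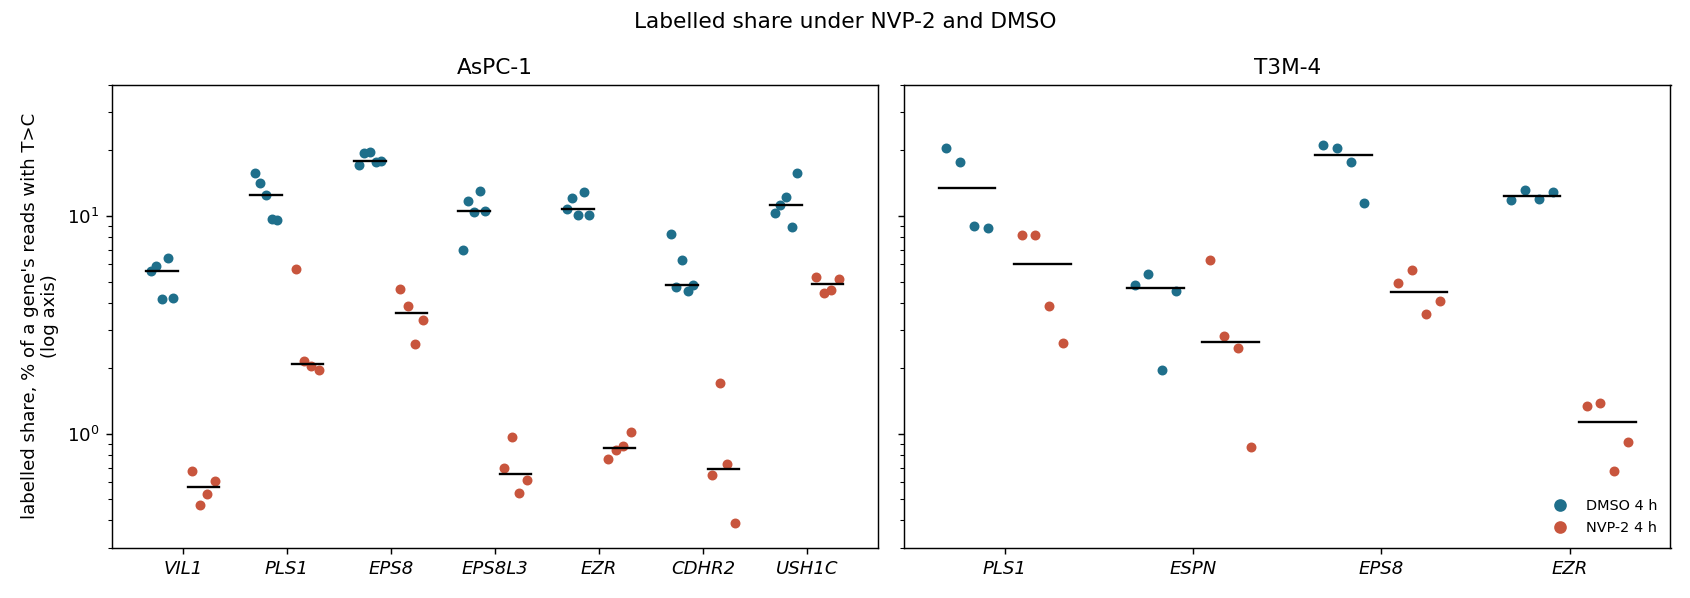
Labelled share in percent of a gene's reads, on a log axis, in each DMSO 4 h library (blue) and NVP-2 4 h library (red), for the 7 genes tested in AsPC-1 on the left and the 4 tested in T3M-4 on the right, with black lines at the medians. USH1C in AsPC-1 stays between 4.41% and 5.26% with NVP-2, EPS8L3 drops to 0.536% to 0.971%, and the ESPN groups overlap in T3M-4.

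T>C CPM compares a gene with the other labelled RNA of its library, so a gene that keeps more label than most rises on this scale while its labelled reads fall in number. On it, 3506 of 11498 genes passed in AsPC-1 (30.5%) and 2 of 7 members, both higher. USH1C measured 105, 88.7, 73.7, 78.6 and 24.6 T>C CPM in DMSO and 139, 121, 292 and 489 in NVP-2, every NVP-2 library above every DMSO library (log2 change 2.35 ± 0.457, adjusted p = 0.0028). PLS1 measured 31.0, 28.1, 19.0, 13.8 and 14.1 CPM in DMSO and 53.7, 27.4, 33.6 and 19.2 in NVP-2 (1.24 ± 0.367, adjusted p = 0.024). The groups overlapped for PLS1, and its call was lost without NVP-2 library 1.1 (adjusted p = 0.091) or DMSO library 2.1 or 2.2 (adjusted p = 0.055 for each). Against the batch 2 NEG libraries, USH1C was at 2.23 (adjusted p = 0.0045) and PLS1 at 1.54 (adjusted p = 0.017), and against the batch 2 DMSO 12 h libraries at 2.41 and 1.42 (adjusted p = 0.0044 and 0.026). With a library set term USH1C was at 1.73 (adjusted p = 0.034) and PLS1 at 1.05 (adjusted p = 0.057).

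VIL1 (0.84, adjusted p = 0.065), CDHR2 (1.09, adjusted p = 0.13), EPS8L3 (−0.94, adjusted p = 0.11), EZR (−0.19) and EPS8 (0.05) did not pass in T>C reads of AsPC-1. EPS8 was at 0.68 against the batch 2 NEG libraries (adjusted p = 0.080) and at 0.53 against the batch 2 DMSO 12 h libraries (adjusted p = 0.21). VIL1 passed without DMSO library 1.1 (adjusted p = 0.023) and CDHR2 without NVP-2 library 1.1 (adjusted p = 0.031, and 0.018 in all reads). In all reads 1667 of 14095 genes passed (11.8%) and VIL1 was the 1 member of 9, at 69.7, 49.5, 46.1, 28.8 and 34.5 CPM in DMSO and 100, 71.7, 69.1 and 73.7 in NVP-2 (1.01 ± 0.258, adjusted p = 0.030). Leaving out any 1 of 7 of the 9 libraries, DMSO 1.2, 1.3, 2.1 and 2.2 and NVP-2 1.1, 1.2 and 2.2, ended that call (adjusted p = 0.064, 0.051, 0.062, 0.080, 0.059, 0.057 and 0.065). With a set term it was at 0.79 (adjusted p = 0.044). The batch 2 controls were higher in VIL1 than the DMSO 4 h libraries, at 59.7, 67.3, 67.8 and 53.2 CPM in NEG and 63.8, 83.6, 66.0 and 72.9 in DMSO 12 h. Of the 4 NVP-2 libraries 3 lay inside the range of these controls, and against them VIL1 did not pass (0.55, adjusted p = 0.17 against NEG, and 0.40, adjusted p = 0.52 against DMSO 12 h).

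In T3M-4, 3263 of 12242 genes passed in T>C reads with NVP-2 (26.7%) and 3 of 4 members, all higher on this scale. EPS8 measured 66.2, 44, 85.5 and 48.5 T>C CPM in DMSO and 122, 154, 139 and 158 in NVP-2 (1.82 ± 0.318, adjusted p = 0.0025). ESPN measured 3.5, 6.28, 1.54 and 3.85 CPM in DMSO and 27.1, 12.7, 15 and 4.85 in NVP-2 (2.50 ± 0.585, adjusted p = 0.010). PLS1 measured 11.2, 10.3, 11.1 and 9.92 CPM in DMSO and 27.6, 28.1, 32.9 and 17.0 in NVP-2 (1.90 ± 0.349, adjusted p = 0.0033). The groups did not overlap for EPS8 and PLS1, while 1 NVP-2 library for ESPN lay within the DMSO range. EZR was at −0.68 ± 0.281 (adjusted p = 0.10). Within batch 1 all 3 passed, and within batch 2 EPS8 alone did (1.94, adjusted p = 0.028), with ESPN at 2.66 (adjusted p = 0.10) and PLS1 at 2.04 (adjusted p = 0.056). In all reads 807 of 15653 genes passed (5.16%) and 0 of 7 members by edgeR, with EPS8 at 0.87 (adjusted p = 0.058, and 0.036 without NVP-2 library 1.1). By DESeq2 2 members passed, and the share of all genes it passed is not given here.

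Scaled to all reads instead of T>C reads, the same genes were lower with NVP-2: USH1C at −0.95 and PLS1 at −1.96 in AsPC-1, and EPS8 at −1.22, ESPN at −0.54 and PLS1 at −1.16 in T3M-4. On that scale the median of all genes was −3.26 in AsPC-1 and −3.09 in T3M-4, so these members lay above the median by either scale. The NVP-2 change differed between the lines for 112 of 13159 genes (0.851%) and for EPS8 among 8 members, with T3M-4 minus AsPC-1 at 1.76 ± 0.397 (adjusted p = 0.041). That call was lost with no filter on low counts (adjusted p = 0.050), with the replicate number as a block (adjusted p = 0.11), with the batch 2 NEG or DMSO 12 h libraries as the AsPC-1 controls (1.16 and 1.28, adjusted p = 0.26 and 0.27) and without any 1 of 13 of the 17 libraries, where adjusted p-values ran from 0.052 to 0.10: AsPC-1 DMSO 1.2, 1.3, 2.1 and 2.2, AsPC-1 NVP-2 1.2, 2.1 and 2.2, T3M-4 DMSO 1.1, 1.2 and 2.2, and T3M-4 NVP-2 1.2, 2.1 and 2.2.

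**Figure D5:**
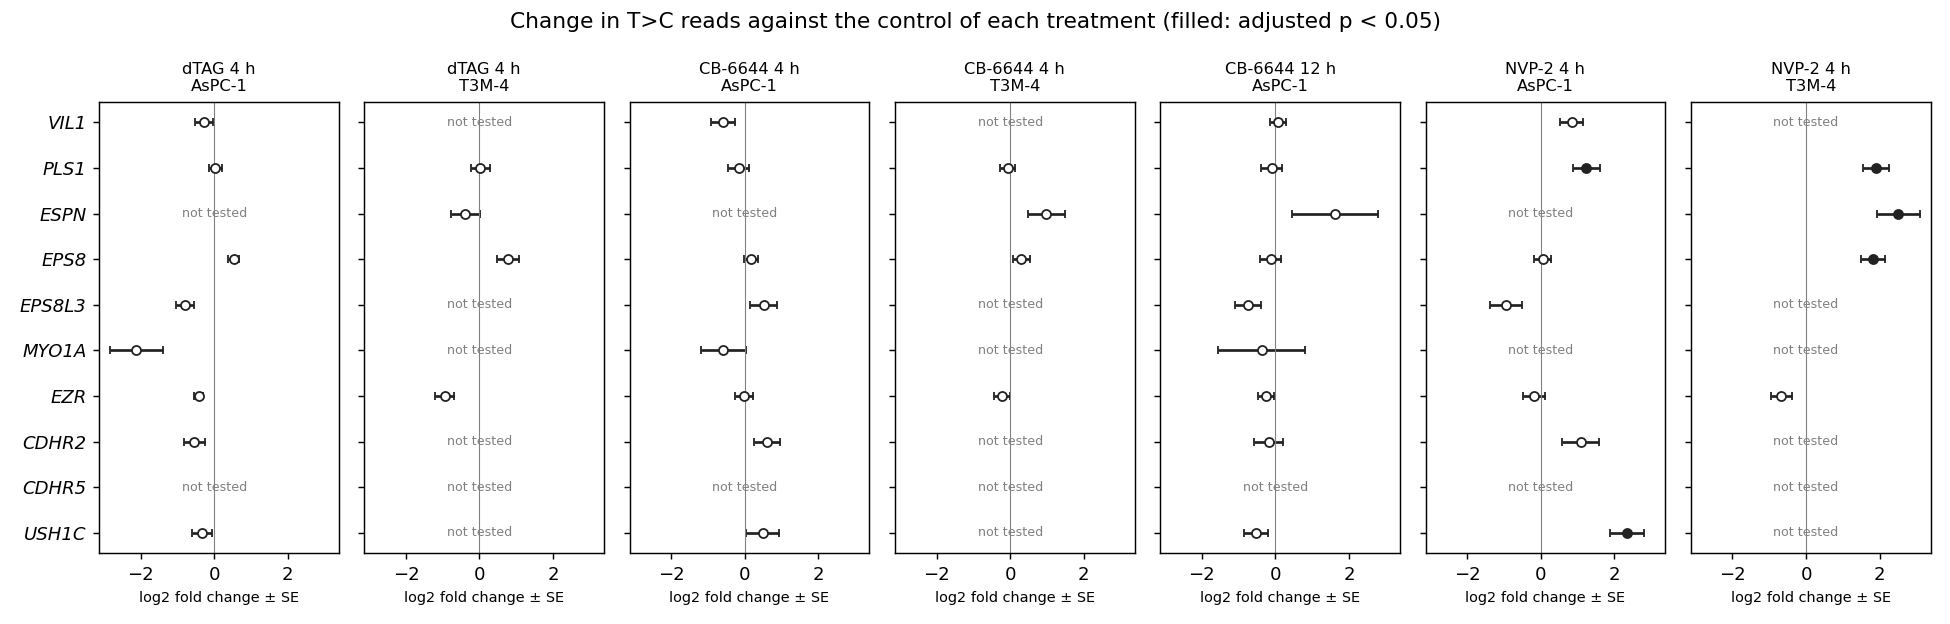
log2 fold change in T>C reads, with its standard error, for the 10 genes in the 7 treatment contrasts, from edgeR fits without a replicate block, with filled points at an adjusted p under 0.05. Filled points appear in the NVP-2 panels alone (USH1C and PLS1 in AsPC-1, EPS8, ESPN and PLS1 in T3M-4), and genes under the filter on low counts are marked as not tested.

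Among 46 related genes that are not members, namely bundlers, myosins, ERM partners, adhesion complex genes and brush-border enzymes, 32 were tested in T>C reads of AsPC-1 with dTAG, and 3 passed without the block, each lower, where 2.4% of all genes passed and 1.94% were lower: BAIAP2L2, an I-BAR protein that bends membranes (−1.09, adjusted p = 0.0011), the actin bundler fascin FSCN1 (−0.92, adjusted p = 0.0020) and SLK, a kinase of ERM proteins (−0.50, adjusted p = 0.030). In T3M-4 30 were tested and PODXL, a membrane partner of ezrin, was lower (−1.16, adjusted p = 0.031), where 0.745% of all genes were lower. With the replicate block, 1 of the 32 was higher and 10 were lower in AsPC-1, where 2.27% of all genes were higher and 5.14% lower. The ERM-binding scaffold NHERF2 (−1.23, adjusted p = 0.00049) and PODXL (−1.29, adjusted p = 0.00011) were among the 10. In T3M-4, 0 of the 30 were higher and 5 lower with the block, NHERF2 (−1.22, adjusted p = 0.028) and PODXL (−1.15, adjusted p = 0.0087) among them, where 1.91% of all genes were lower. With CB-6644 0 of 32, 0 of 30 and 0 of 33 passed in T>C reads. With NVP-2, 2 were higher and 4 lower of 32 in AsPC-1, where 12.9% of all genes were higher and 17.6% lower, among them the adhesion complex scaffold ANKS4B (−3.00, adjusted p = 0.00079), the sodium exchanger SLC9A3 (−2.48, adjusted p = 0.0037) and the peptide transporter SLC15A1 (1.28, adjusted p = 0.0070). In T3M-4 5 were higher and 3 lower of 30, against 12.4% and 14.2% of all genes, among them SLC9A3 (−3.46, adjusted p = 0.0021) and the plastins LCP1 (1.98, adjusted p = 0.0025) and PLS3 (1.47, adjusted p = 0.017).

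Between the lines, 11 of the 37 related genes tested in all reads were higher in T3M-4 and 17 lower, where 30.5% of all genes were higher and 25.2% lower. All 3 related genes of the adhesion complex were lower, ANKS4B among them (adjusted p = 2.7e-07), as CDHR2 and USH1C were. Of the 6 brush-border enzymes and transporters tested, 4 were lower, among them DPP4 (−5.47, adjusted p = 1.9e-07) and SLC15A1 (−6.67, adjusted p = 4.9e-08), and 1 was higher. Bundling genes were split, with 4 higher and 4 lower of 10, and LCP1, a relative of PLS1 best known from blood cells, was higher in T3M-4 (adjusted p = 1.8e-07).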

How the data were processed

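SLAM-seq was done on AsPC-1 and T3M-4 cells. The authors aligned and counted single-end 100 base QuantSeq 3′ reads with slamdunk at default settings over GENCODE v44 (hg38) 3′ untranslated exons, summed per gene, and deposited raw counts of T>C reads and of all reads per gene and library. The slamdunk version is not given in the sources used here. All reads of AsPC-1 dTAG library 3.1 were left out, since that deposited column repeats the T>C counts of another library, and 18 empty unnamed columns were ignored.

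Groups were taken from the sample labels. The 10 genes, the related genes and the tests were chosen with earlier results of these data known. Counts were filtered with filterByExpr and scaled by TMM, and each treatment was compared with its control using the quasi-likelihood test of edgeR 4.0.16 (R 4.3.3) in the libraries of that contrast, with Benjamini-Hochberg adjustment over all genes and a threshold of 0.05. The labelled share was tested with an edgeR model of T>C and other reads per library (log2 odds). Standard errors are the log2 change divided by the square root of F. Lines, and treatment effects in the 2 lines or times, were compared in joint fits. CPM used the library total, without TMM. Overlap between groups was looked at for the members alone, so the share of all genes without overlap is not known. Alternatives were DESeq2 1.42.0, no filter, all-read library sizes, each library left out, batches alone, other controls, experiment, library set and replicate blocks, and counts summed per experiment. The scripts were tested on simulated counts.

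The replicate block was used where same-numbered libraries deviated together. Correlations of their deviations from the group means were 0.259 to 0.562 for dTAG in AsPC-1 and 0.204 to 0.484 in T3M-4, and they also exceeded 0.1 for CB-6644 in T3M-4 and at 12 h. At least 1 pair was below 0.1 for CB-6644 at 4 h in AsPC-1 and for NVP-2 in both lines.

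The named genes are all 10 members, at most 5 related genes past the threshold per contrast by smallest p, the 2 genes of highest Spearman correlation with each member over the AsPC-1 DMSO and NEG 4 h libraries, and KLF5. Libraries held 2240998 to 27982537 T>C reads. Intervals are not given for shares, since reads can be counted more than once.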

Additional observations from a re-analysis of the deposited data

Results flagged for a closer look

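In 102 combinations of a gene and a group of 4 to 10 libraries, 11 had 1 library far from the rest in T>C CPM by Dixon's test. That test assumes normal values, and 1 library above 0 among libraries at 0 is always flagged. The number flagged can therefore not be set against a chance rate. Most of the 11 hold a few reads of a gene that is otherwise at 0. CDHR2 was at 0.0920 T>C CPM in T3M-4 NEG library 1.2, and CDHR5 at 0.335 in AsPC-1 CB-6644 12 h library 4, at 0.0669 in DMSO 12 h library 3 and at 0.198 in dTAG library 1.3, with the other libraries of each group at 0. ESPN was at 0.678 in AsPC-1 DMSO 12 h library 4 and at 1.57 in DMSO 4 h library 1.3. MYO1A was at 5.22 in AsPC-1 CB-6644 12 h library 3, a set B library, and at 0.322 in T3M-4 dTAG library 1.2. USH1C was at 0.183 in T3M-4 NEG library 1.1 and at 3.8 in T3M-4 NVP-2 library 1.1, and VIL1 at 0.0715 in T3M-4 dTAG library 1.2.

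The NVP-2 change of EPS8 in T>C reads differed between the lines, by 1.76 on the log2 scale in the test of the difference, T3M-4 minus AsPC-1, with the adjusted p of 0.041 and the losses of that call given with the result. In AsPC-1 the NVP-2 libraries and the DMSO 4 h libraries differ in batch, and with AsPC-1 controls of the NVP-2 batch the difference was 1.16 (NEG 4 h) or 1.28 (DMSO 12 h) and did not pass.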

How the results depend on the processing

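Numbers below are members past the threshold. The share of all genes past it changes with the setting as well, for T>C reads with dTAG in AsPC-1 from 2.4% to 7.41% with the replicate block. For most other settings that share is not given here, so a larger count does not by itself set the members apart. In T>C reads with dTAG in AsPC-1, 0 became 3 with DESeq2, 4 with the replicate block, 2 with library sizes of all reads, 3 with an experiment block, 1 in batch 1 alone, and 4 with a library set block or with set and experiment blocks together, and 0 to 2 when 1 library was left out. In all reads it became 3 with the replicate block and 1 with the set block. In T3M-4 0 became 1 with the replicate block and 1 with the experiment block. In the share, measured relative to the share of each library, 6 became 2 with dTAG in AsPC-1, 0 became 1 in T3M-4, 1 became 0 with CB-6644 at 4 h in AsPC-1 and 7 became 3 with NVP-2 in AsPC-1. By the exact two-sided permutation test with unadjusted p, the share passed for 2 members with dTAG in T3M-4, 3 with CB-6644 at 4 h in AsPC-1 and 2 at 12 h. With 4 libraries against 4 that test cannot go below 0.0286. It was run on the members alone, so these counts have no share of all genes to be read against. Leaving out 1 library gave 0 to 1 in the share with CB-6644 at 4 h in AsPC-1.

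With NVP-2 in AsPC-1, 2 in T>C reads became 4 with DESeq2, 6 with library sizes of all reads, 0 with counts summed per experiment and 1 with a library set block, and 1 to 3 without 1 library, while 1 in all reads became 0 to 1, and 0 against either batch 2 control. In T3M-4, 3 in T>C reads became 0 with counts summed per experiment and 1 in batch 2 alone, and 0 in all reads became 2 with DESeq2, 1 with the replicate block and 0 to 1 without 1 library. The line difference, 1, became 0 with no filter, 0 with the replicate block and 0 with either batch 2 control, and 0 to 1 without 1 library.

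Directions turned with library sizes of all reads under NVP-2, where AsPC-1 CDHR2 was at −2.14, EPS8 −3.13, PLS1 −1.96, USH1C −0.95 and VIL1 −2.39, and T3M-4 EPS8 −1.22, ESPN −0.54 and PLS1 −1.16. By construction that scale keeps the loss of labelled reads shared by all genes. Relative to the share of each library, log2 odds turned to 0.20 for EPS8, 0.49 for PLS1 and 1.47 for USH1C in AsPC-1 and to 0.47 for EPS8, 2.00 for ESPN and 1.16 for PLS1 in T3M-4. EZR between lines in all reads was −0.46 in the NEG libraries.

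Of single-gene results, 3103 kept direction and side of the threshold, 49 newly passed, 55 no longer passed and 15 turned. The replicate block changed no other call in T>C or all reads among the contrasts called paired, and was not fitted to the share. Pairing was called where every same-numbered pair correlated above 0.1. Whether paired or not, no treatment contrast had every library correlate best with its own number (5 of 10 for dTAG in AsPC-1 and 3 of 4 in T3M-4). Shares relative to the library, set with experiment blocks, the set block on all reads, and batch 2 controls for all reads, the share and the line difference were chosen after seeing the data. Low counts limit MYO1A, CDHR2, CDHR5 and ESPN in AsPC-1 and 6 of the 10 genes in T3M-4. The cause of the other shifts was not tested.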
